A study of Homo sapiens with 4 samples.

Results

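RNA levels in K562 cells with a knockdown of ADAR were compared with those of K562 cells that carried a scrambled control, over every gene in the authors' deposited K562 table. The table held 945 rows for 942 genes, of the 2351 genes listed over the K562 and HepG2 tables of the study, and 410 of the 942 were protein-coding by the reference annotation. K562 is a human erythroleukemia line that carries the BCR-ABL fusion kinase. The knockdown cells were stably transfected with a plasmid for an siRNA against ADAR, chosen by the submitters from several as the most effective, and the control cells carried the same kind of plasmid with a scrambled siRNA. Both grew in serum-containing RPMI medium, and no other treatment is given. The labels do not say whether the stable cells were a pool or a single clone. Each group was 1 sample, sequenced as 2 technical replicates of paired 76-base reads, and the table gives only the authors' average for each group. The differences below therefore have no replicate check, no error and no p-value, and they compare these 2 cultures.

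ADAR deaminates adenosines within double-stranded RNA, which turns them into inosines. It edits mainly paired repeats in noncoding parts of transcripts, and its loss in many cell types lets endogenous double-stranded RNA be sensed as foreign, which starts an interferon response. K562 cells grow as immature blood cells that hold both erythroid and megakaryocytic potential, and they express fetal and embryonic globins together with surface proteins of several blood lineages. The study asked how ADAR affects alternative splicing; the values used here are gene levels and not isoforms.

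The table lists only genes at or past 2-fold, so a gene that is not in it may have differed less, been too low or been left out for another reason. Folds are the ratio of the knockdown average to the control average after adding 1 to each, and they understate the difference of genes with low averages. The unit of the averages is not named, so levels of different genes are not compared, and a mean of both averages serves only to choose which genes are described. The library depth is unknown. Of 942 genes, 582 (61.8%) had the lower average in the knockdown. Protein-coding genes numbered 410, of which 290 (70.7%) were lower and 120 (29.3%) were higher, and these shares are the background for each count below. The remaining 532 genes, pseudogenes and noncoding RNAs for the most part, were 54.9% lower.

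ADAR itself averaged 131 in the knockdown and 275 in the control. It was 2.09-fold lower, a log2 fold of -1.06, in the direction of its label. Among the 290 lower protein-coding genes, 247 had a lower log2 fold than ADAR. ADAR was also the only listed member of 40 genes that sense or edit double-stranded RNA. None of the sensors IFIH1, DDX58 and EIF2AK2 and no other editing enzyme was listed. Of 58 interferon-stimulated genes, 2 were listed and both were lower, beside 70.7% of all listed protein-coding genes. UBE2L6, the conjugating enzyme for the ubiquitin-like modifier ISG15, averaged 32.2 against 110, 3.34-fold lower. IFIT2, an RNA-binding protein induced by interferon, averaged 5 against 15.5, 2.75-fold lower.

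**Figure D1:**
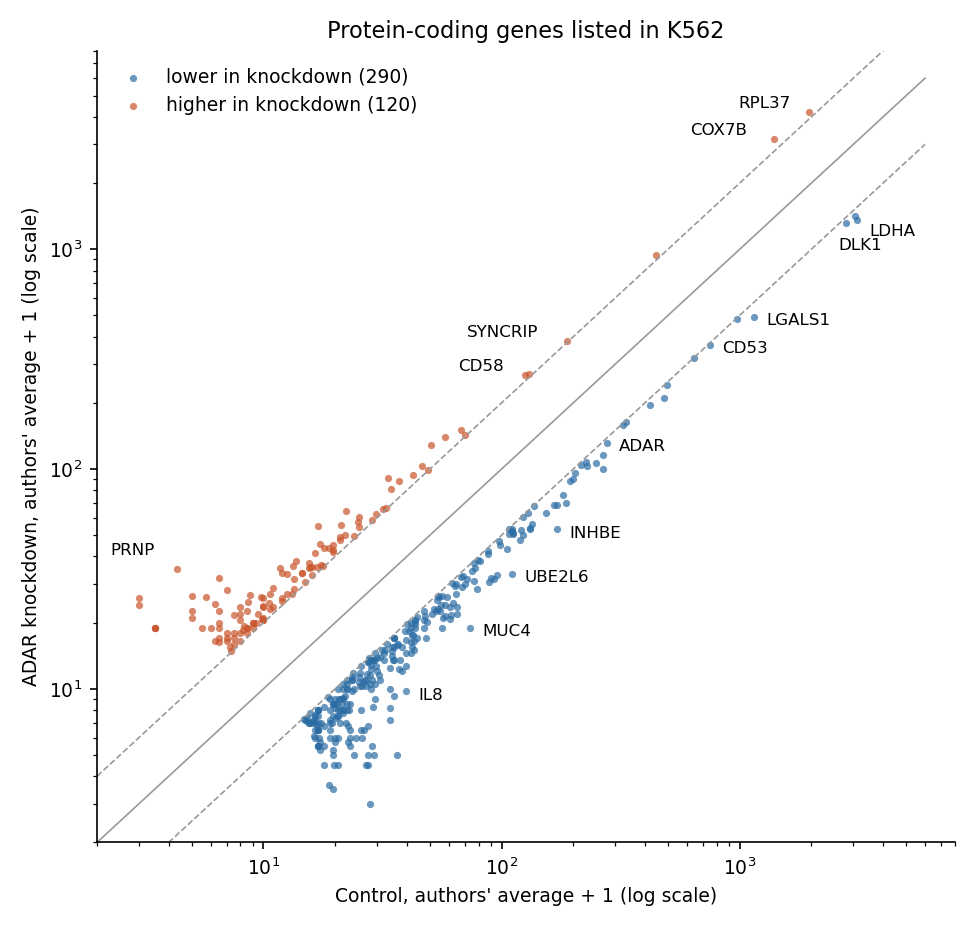
Each point is 1 of the 410 protein-coding genes in the K562 table, with the authors' control average plus 1 on the horizontal axis and the knockdown average plus 1 on the vertical axis, both on log scales. Dashed lines mark 2-fold and no gene lies between them. Of the genes with the highest averages, RPL37, COX7B, SYNCRIP and CD58 lie on the higher side, and LDHA, DLK1, LGALS1, CD53 and ADAR on the lower side.

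Protein-coding genes that were lower in the knockdown had a higher GC content than those that were higher. Without replicates, whether this difference came with the knockdown or with a difference between the libraries was not tested. The median GC content of the longest coding transcript was 53.6% over the 290 lower genes (quartiles 44.8% and 59.9%) and 42.1% over the 120 higher genes (quartiles 38.7% and 47.6%). The median over 19659 annotated protein-coding genes was 49.4%. When the 410 genes were put into 4 bins of near-equal size by GC content, the share that was lower in the knockdown was 40.8% in the bin with the lowest GC content, then 67.6%, 86.3% and 88.3%. Below the median GC content of 50.3%, 54.1% of the genes were lower, and at or above it 87.3% were. The same order held in each of 4 bins by mean average: 50%, 51.9%, 48.8% and 63.8% of genes below the median GC content were lower, against 84.6%, 86.5%, 83.9% and 95.6% of those at or above it. The GC content of promoters did not show this order: over the RefSeq windows that could be matched, its median was 63.7% for 214 lower genes and 64.8% for 96 higher genes. That check is void as a statement on all members, since fewer than 80% of them (310 of 410) had a window. Median transcript lengths were 2927 bases for the lower genes and 3288 for the higher ones. In the HepG2 table, split at the same bounds, the shares lower were 43.8%, 48.5%, 46.4% and 37.1% from the lowest to the highest bin, around a background of 44.5% lower. The difference between the lines was not tested. GC content is given beside most classes of function below, and its part in those results was not tested.

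As a picture of these ends of the range, the first 120 coding bases of 2 genes are shown, with G and C in capitals. They are the lower gene with the highest GC content and the higher gene with the lowest, among the genes searched (GENCODE release 29, GRCh38). The search took genes whose larger average reached the median of 29.05. It passed over the genes of a chromosome that was left out. Genes whose longest coding transcript had no annotated start at ATG were passed over as well. C16ORF11, named PRR35 in the reference, lies on the plus strand of chromosome 16 and encodes a proline-rich protein. It averaged 14.5 in the knockdown and 41 in the control. DCUN1D1, on the minus strand of chromosome 3, promotes the attachment of NEDD8 to cullins. It averaged 87.2 in the knockdown and 36 in the control.
C16ORF11: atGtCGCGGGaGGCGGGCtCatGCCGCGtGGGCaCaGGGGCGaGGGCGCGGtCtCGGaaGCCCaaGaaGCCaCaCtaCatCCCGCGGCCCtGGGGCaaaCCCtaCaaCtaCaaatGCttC
DCUN1D1: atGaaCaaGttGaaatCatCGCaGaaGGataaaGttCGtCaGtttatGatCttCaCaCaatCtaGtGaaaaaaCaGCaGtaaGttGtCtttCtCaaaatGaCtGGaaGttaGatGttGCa
G and C made up 65.8% of the first stretch and 35.0% of the second. Over the whole transcripts they made up 70.9% and 33.9%.

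**Figure D2:**
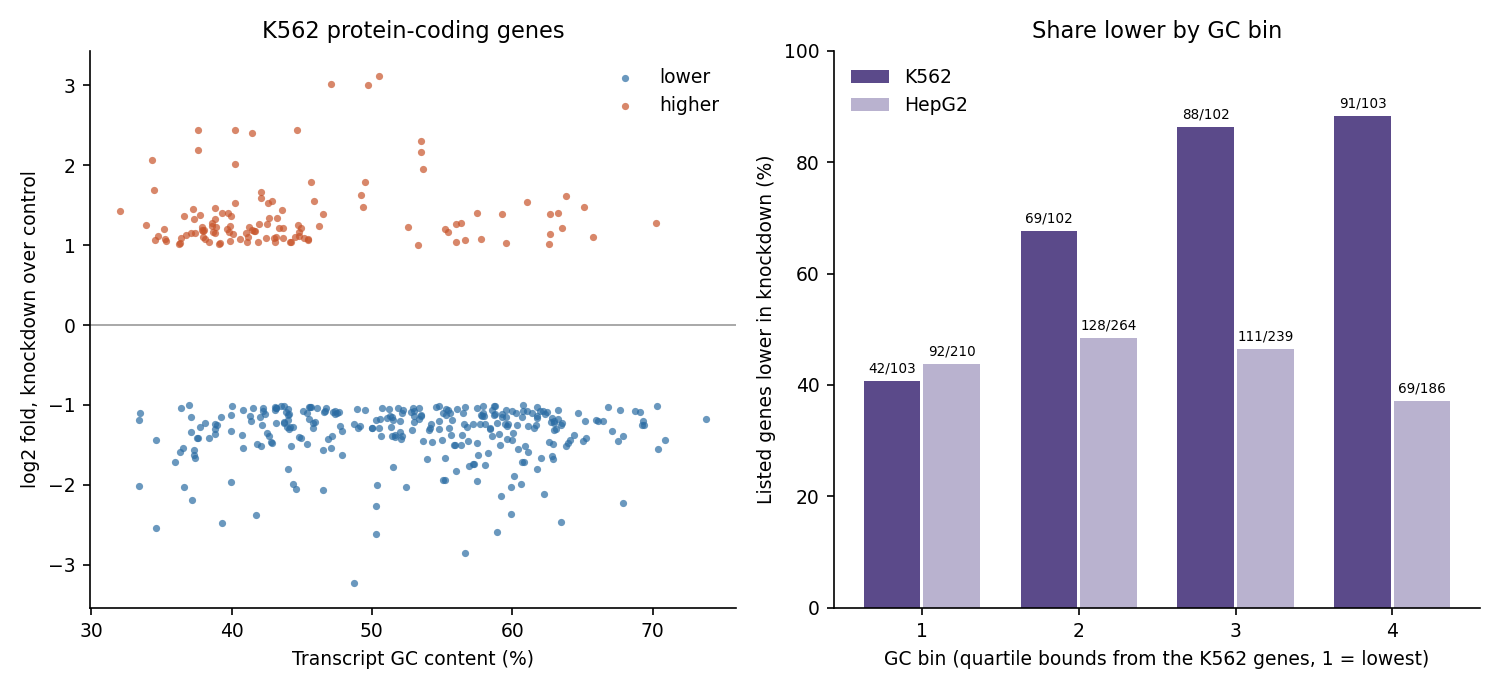
The left panel plots the log2 fold of each K562 protein-coding gene against the GC content of its longest coding transcript in percent, and the right panel gives the percentage of listed genes that were lower in each of 4 bins (quartile groups of the K562 genes) of GC content in K562 and HepG2, with the counts above the bars. The K562 bars go from 40.8% to 88.3%, and the HepG2 bars lie between 37.1% and 48.5%.

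The 30 protein-coding genes with the highest mean averages held 24 lower and 6 higher genes. Of these 6, RPL37 and the row named LOC100130107, which the reference calls RPS3A, encode proteins of the large and the small ribosomal subunit. RPL37 averaged 4196 in the knockdown and 1953 in the control, 2.15-fold higher. The RPS3A row averaged 943 against 444, 2.12-fold higher. Processed pseudogenes of both genes were listed as higher too, and how reads were divided among such copies is not given. COX7B, a small subunit of cytochrome c oxidase, averaged 3172 against 1386, 2.29-fold higher. SYNCRIP, an RNA-binding protein of the hnRNP family, averaged 382 against 187, PFDN4, a subunit of the chaperone prefoldin, 271 against 130, and CD58, the adhesion ligand of CD2, 266.5 against 124. The GC content of these genes, under 50% in each case, lay between 35.3% for PFDN4 and 45.2% for the RPS3A row.

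Of the 24 lower genes in this group, several encode proteins of metabolism, the cytoskeleton and the cell surface. LDHA, which converts pyruvate to lactate, averaged 1364.5 in the knockdown and 3112 in the control, 2.28-fold lower. BRK1, a small subunit of the WAVE complex that drives actin branching, averaged 1420 against 3041. DLK1, a membrane protein related to the Notch ligands that is imprinted and fetal in many tissues, averaged 1311 against 2804. LGALS1, the galactoside-binding lectin galectin-1, averaged 492.5 against 1149.5 and was 2.33-fold lower. CD53, a tetraspanin of leukocytes, averaged 366 against 748.5. ADAM17, the protease that sheds TNF and ligands of the EGF receptor, averaged 157 against 322, and SDC3, a heparan sulfate proteoglycan, 163 against 331. SETD8, named KMT5A in the reference, which places the monomethyl mark on histone H4, averaged 240.0 against 495. MXI1, which competes with MYC for its partner MAX, averaged 105 against 247, and CCNY, a membrane-bound cyclin, 114 against 266. G6PC3, a glucose-6-phosphatase whose loss causes neutropenia, averaged 319 against 640 and lay just inside the threshold at 2.00-fold. TEX19, NRGN, TMEM158, BCAP29, UCP3, ZHX1, SPDYC, MKRN1, SCRT2, C3ORF16, ATP5MGL and TIMM23B made up the rest with ADAR, between 2.03-fold and 2.67-fold lower. TIMM23B has a near-identical copy, and NRGN overlaps another listed gene, so their values are uncertain.

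The K562 list holds 410 protein-coding genes, beside 19659 annotated ones, and gene lists of most kinds had few listed members. The genes that define the red cell program were almost absent too, which at that share is not particular to them. None of 11 globin genes, 39 genes of heme synthesis and iron or 45 genes of erythroid transcription and erythropoietin signalling was listed in either direction, and neither was any of the 13 erythroid markers. Since only genes past 2-fold are listed, their levels cannot be read, and the identity of the cells as K562 rests on the label. Of 40 genes of the red cell membrane and blood groups, 3 were listed. EPB49, the actin-bundling protein dematin of the red cell membrane skeleton, averaged 19.8 in the knockdown and 60 in the control, 2.94-fold lower. EPB41L1, a relative of the membrane skeleton protein 4.1R that is best known from neurons, averaged 6.17 against 15.2. AQP1, the water channel that carries the Colton blood group, was the higher one, at 16 against 6.

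Genes of other blood lineages were listed as lower. All 4 listed genes of 61 myeloid and monocyte genes were lower, against 70.7% of all listed protein-coding genes. FCGR2A, an Fc receptor for IgG, averaged 62 against 152.5, 2.44-fold lower. CSF3R, the receptor of the granulocyte growth factor G-CSF, averaged 14 against 42, 2.87-fold lower. ITGAM, the integrin chain of the complement receptor Mac-1, averaged 11.6 against 28.8, and CSF1, the growth factor of macrophages, 6 against 15.5. FCGR2A has close paralogs that may share reads with it. Both listed genes of 40 megakaryocyte and platelet genes were lower too. ITGA2B, the platelet integrin chain that is an early megakaryocyte marker, averaged 19.2 against 47.5, 2.40-fold lower. ITGA6, a laminin-binding integrin chain, averaged 6.75 against 20.5. C6ORF25, a receptor of megakaryocytes and platelets named MPIG6B in the reference, was recognised after its values were seen, at 13.5 against 38.5. No gene of 39 lymphoid genes was listed. Of the fixed cell type markers, 1 of 8 megakaryocyte markers (ITGA2B) and 1 of 8 myeloid markers (ITGAM) were listed, with none of 8 lymphoid, 7 hepatocyte and 5 fibroblast markers. In bulk RNA, fewer cells of a kind and less RNA per cell cannot be told apart.

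In a class of 23 listed proteins of the blood cell surface, cytokines and their receptors, 22 were lower and CD58 was higher. The median log2 fold was -1.26, beside -1.13 over all 410 protein-coding genes, and every listed value is at least 1 in size because of the threshold. This class, like the other classes of function below, was put together by hand from the listed genes after the table had been seen, and it leaves out AQP1 and ACVR2A, which were higher and were put into other classes. Its median GC content was 53.7%. Of its 10 genes below the median GC content 9 were lower, beside 54.1% of all such genes, and of its 13 at or above it 13 were lower, beside 87.3%. TMEM173, the innate immune adaptor STING, averaged 42.2 in the knockdown and 104 in the control. The chemoattractant receptors C3AR1 (25.2 against 58.2) and FPR3 (18.8 against 39) and the chemokine receptor CXCR4 (7 against 16) were lower. So were CD48, a ligand of CD244 (9.5 against 28.5), CD83 (9 against 23), the TNF family member CD70 (7 against 19.5) and the growth factor FLT3LG (5.5 against 24.8).

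**Figure D3:**
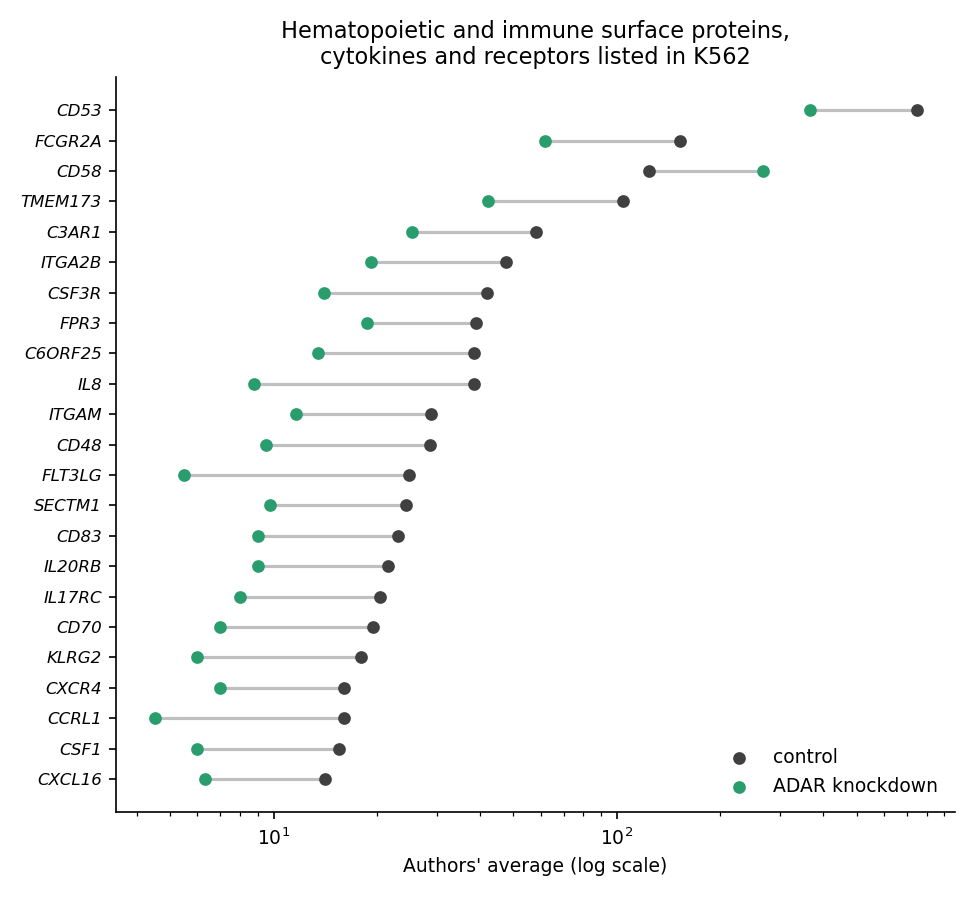
The authors' averages in the control and in the ADAR knockdown are joined by a line for each of the 23 listed blood cell surface proteins, cytokines and receptors, on a log scale. In 22 genes the knockdown point lies to the left of the control point, and in CD58 it lies to the right.

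IL8, which encodes the neutrophil chemoattractant CXCL8, averaged 8.75 in the knockdown and 38.5 in the control, 4.05-fold lower. It was among the 10 lowest folds of genes at or above the median larger average, and it went the opposite way in HepG2. Its promoter is shown for that reason, from 250 bases before to 50 bases after the start site, as given by RefSeq on GRCh38.p14 at chr4:73740319-73740618 on the plus strand. Capitals mark the letters GGAATTTCC, the NF-kB site known from this promoter, which was searched on both strands.
CXCL8: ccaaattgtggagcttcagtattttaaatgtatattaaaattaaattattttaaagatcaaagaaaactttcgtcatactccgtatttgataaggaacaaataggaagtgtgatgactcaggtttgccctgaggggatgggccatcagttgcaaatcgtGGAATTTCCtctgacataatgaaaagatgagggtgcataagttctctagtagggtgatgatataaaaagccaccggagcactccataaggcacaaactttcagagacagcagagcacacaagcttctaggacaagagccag
The letters occur once, from position -91 relative to the start site. They occur in 0.461% of 35116 RefSeq windows of this length, in 0.610% of the 328 windows that matched lower genes and in 0 of the 126 that matched higher genes. The windows of lower genes include that of CXCL8 itself, whose own site gave the letters searched, so these shares cannot be set against each other. A match is a description of the sequence only.

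Signalling by growth factors and by the Wnt, Notch and TGF-beta families was the class of function with the most lower genes. Of 29 listed genes 28 were lower, with a median log2 fold of -1.19 and a median GC content of 54.8%. Below the median GC content 7 of 8 were lower, and at or above it 21 of 21. Over all such genes the shares were 54.1% and 87.3%. INHBE, a beta subunit of the inhibins and activins, averaged 52.2 in the knockdown and 170 in the control, 3.21-fold lower. SKIL, which restrains the SMAD factors downstream of TGF-beta, averaged 51.7 against 119. The TGF-beta coreceptor ENG, the ligand BMP6, the BMP coreceptor RGMA and the receptor AMHR2 were lower as well, and ACVR2A, an activin receptor, was the single higher gene at 17 against 7. Regulators of the Wnt pathway included FRAT1 (5 against 25), the beta-catenin partner BCL9 (23 against 54.8) and the secreted inhibitor NOTUM (8 against 19.8). The Notch ligand DLL4 averaged 7 against 20.5.

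Of the genes taken by symbol pattern as receptor kinases and ligands, 7 were listed and all 7 were lower; the pattern also takes NRGN, which is neither, and misses ACVR2A, a receptor kinase that was higher. ERBB3 averaged 5.5 against 15.5, and IGFBP4, a binding protein of insulin-like growth factors, 49.5 against 107. Downstream of BCR-ABL, 1 of 69 kinase signalling genes was listed: SPRY1, a feedback inhibitor of receptor kinases, at 7.5 against 21.5. RPS6KA3, a kinase of the ERK pathway, averaged 52.3 against 106 and lay near the threshold at 2.01-fold.

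Fetal and imprinted genes were listed 3 times of 26, and all 3 were lower, beside 61.8% of all listed genes. Beside DLK1, the noncoding RNA H19 averaged 6.83 in the knockdown and 34.1 in the control, 4.49-fold lower. CDKN1C, an imprinted inhibitor of cyclin-dependent kinases, averaged 7 against 21.8, 2.85-fold lower. Of 58 genes of the MYC family and of leukemia, MXI1 and MYCL1 were listed. MYCL1, a member of the MYC family, averaged 8.25 against 34.5, 3.84-fold lower, though its locus overlaps that of a second listed gene.

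Transcription factors of development were mostly lower, 19 of 21, with a median log2 fold of -1.25 and a median GC content of 55.5%. Below the median GC content 4 of 5 were lower, and at or above it 15 of 16. The shares over all such genes were 54.1% and 87.3%. ASCL2, a basic helix-loop-helix factor of trophoblast and intestinal stem cells, averaged 55.5 against 133.5. FOXD3, known from pluripotent cells and neural crest, averaged 27.5 against 78, 2.77-fold lower. The SOX family genes SOX21 (46 against 96.5), SOX18 (12.5 against 31) and SOX15 (6.25 against 15.2) were lower. RARG, a retinoic acid receptor, averaged 11.5 against 33, and GATA4, a factor of heart and endoderm, 4.75 against 16.2. MLXIPL, the carbohydrate response factor ChREBP, averaged 4 against 26.5, 5.50-fold lower. The 2 higher genes were PKNOX1, a homeobox partner of the HOX proteins, at 61.2 against 28.8, and HES2, a hairy-related repressor, at 15.5 against 5.25.

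Adhesion proteins, junctions, matrix and secreted proteases were lower in 25 of 29 cases. The median log2 fold was -1.23 and the median GC content 55.4%. Here 7 of 11 genes below the median GC content were lower, and 18 of 18 at or above it. Over all such genes the shares were 54.1% and 87.3%. MUC4, a membrane mucin, averaged 18 in the knockdown and 72.5 in the control, 3.87-fold lower. The lysyl oxidase family, which crosslinks collagen and elastin, gave 3 genes: LOXL2 averaged 11.2 against 36.2, LOXL3 9.33 against 25.8 and LOXL4 8.08 against 20.5. JAM3, a junctional adhesion molecule, averaged 2 against 27, and the claudin gene CLDN11 3.5 against 26.5; their knockdown averages are low. The protocadherin genes PCDHGA3, PCDHGB2 and PCDHGC4 were lower but overlap each other in 1 cluster, so they may not be separate observations. The 4 higher genes were the claudin CLDN22 (57.5 against 27.5), the protease PRSS23 (18 against 7.5), the microfibril protein MFAP5 (18 against 7.5) and the giant cadherin FAT4 (18 against 2.5).

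Enzymes and carriers of metabolism were near the background, with 22 of 32 lower, or 68.8%, and a median GC content of 49.1%. Besides LDHA, the lower genes included GPAT3, listed as AGPAT9, an enzyme of triglyceride synthesis (28.8 against 63.3), H6PD, the pentose phosphate enzyme of the endoplasmic reticulum (10 against 22.5), and SCD5, a stearoyl-CoA desaturase (7.5 against 19.3). The higher genes included ADH5, which clears formaldehyde (149 against 66.5), NUS1, a subunit of the dehydrodolichyl diphosphate synthase (34.7 against 14.7), and GDAP1, a protein of the mitochondrial outer membrane (27.2 against 6).

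In the list of 42 genes of hypoxia and glycolysis, LDHA and NDRG1 were the 2 listed. Both were lower, beside 70.7% of all listed protein-coding genes. NDRG1 averaged 28 against 67.2, 2.35-fold lower. Other genes known to be induced by hypoxia were recognised after their values were seen. All of those picked were lower, and they support nothing further. Among them were SLC16A3, the exporter of lactate (22.6 against 64), and NDUFA4L2, which lowers complex I activity (7 against 21.5). TMEM45A averaged 23.5 against 61.5 and STC2, a secreted glycoprotein, 15.5 against 41.8. MXI1 and LOXL2, described above, are hypoxia-inducible in many cells too. The promoter window of LDHA is shown because it is a textbook target of the hypoxia-inducible factor. It was taken from RefSeq on GRCh38.p14 at chr11:18394313-18394612 on the plus strand, 1 of 2 windows of the gene, and capitals mark ACGTG, the core of the hypoxia response element, on either strand.
LDHA: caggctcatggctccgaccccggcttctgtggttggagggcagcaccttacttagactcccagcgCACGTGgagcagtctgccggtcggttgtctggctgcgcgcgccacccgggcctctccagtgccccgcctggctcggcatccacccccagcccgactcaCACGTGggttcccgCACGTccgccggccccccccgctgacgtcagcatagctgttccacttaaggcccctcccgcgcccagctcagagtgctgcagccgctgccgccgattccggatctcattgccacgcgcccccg
There are 5 matches in 3 runs, since CACGTG reads the same on both strands and holds 2 matches that overlap; the first begins at position -185. The second window of the gene holds 0. The core occurs in 21.4% of all 35116 windows, in 19.5% of those of lower genes and in 25.4% of those of higher genes.

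Of 58 genes of heat shock, oxidative stress and the unfolded protein response, 3 were listed. All 3 were lower, beside 70.7% of all listed protein-coding genes, and so few genes cannot be told from that background. MT2A, a metal-binding metallothionein, averaged 67.8 against 170.5, 2.49-fold lower. Its paralog MT1H averaged 18 against 46, and reads of the metallothionein genes may not have been separated. HSPA6, a strictly inducible HSP70 protein, averaged 30 against 75.5, and STC2 was the other one. Inside the immune signalling pathways 11 of 14 genes (78.6%) were lower, beside the background of 70.7%, with a median GC content of 48.3%. NMI, an interferon-induced partner of STAT proteins, averaged 46.8 against 118. LITAF averaged 30.8 against 91.6, and IRF2, an interferon regulatory factor, 10 against 30. TRAF6, the ubiquitin ligase of Toll-like and interleukin receptors, was higher at 59.5 against 24.2, as was DOCK2, the leukocyte activator of RAC, at 21.5 against 5.5.

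Genes of the cell cycle, the centrosome and cell death were lower in 12 of 16 cases, near the background, with a median GC content of 47.9%. Of 77 cell cycle and replication genes fixed as a list, only CCND1 and CDKN1C were listed. CCND1, the G1 cyclin D1, averaged 4 against 23, 4.80-fold lower, at a low knockdown average. PHLDA1, a regulator of apoptosis, averaged 67.8 against 165. Of 61 genes of apoptosis, autophagy and p53, 2 were listed and both were lower, beside 70.7% of all listed protein-coding genes. ATG14, listed as KIAA0831, which directs the PI3-kinase complex to autophagosome formation, averaged 7.17 against 32.8. CDK11B, a kinase of transcription and splicing, had the lowest log2 fold of genes at or above the median larger average, -2.86, at 4 against 35.2. It has a near-identical copy, CDK11A, so this value is uncertain. The centrosome protein CEP295, listed as KIAA1731, was higher at 63.2 against 21.2, and so was TEDC2, listed as C16ORF59, at 37.2 against 12.8.

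The cytoskeleton class held 11 lower genes of 14 (78.6%), beside 70.7% of all listed protein-coding genes, with a median GC content of 55.5%. Besides BRK1 and EPB49, the formin FMNL1 of blood cells averaged 10.3 against 24.2 and the keratin KRT7 7 against 24.6. Channels, transporters and G protein signalling held 23 lower of 35, a share of 65.7%, with a median GC content of 53.01%. Below the median GC content 9 of its 16 genes were lower, and at or above it 14 of 19. All such genes gave shares of 54.1% and 87.3%. The cilium class held 3 lower genes of 4, with a median GC content of 41.2%, beside 70.7% of all listed protein-coding genes. Of 10 G protein-coupled receptors and G proteins taken by symbol, 9 were lower, also beside 70.7%. The receptors OR51B5, OR8A1, OR10AD1 and OR2T12 bear olfactory receptor names, and OR10AD1 was the higher gene, at 25 against 2. The lower genes included GNG4 (14.5 against 37) and GNA15, a G protein subunit of blood cells (8 against 18). Enzymes of glycosylation were lower in 4 of 5 cases, again beside the background of 70.7%, with a median GC content of 52.1%. Among them was MGAT3, which adds bisecting N-acetylglucosamine, at 51.5 against 110.

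**Figure D4:**
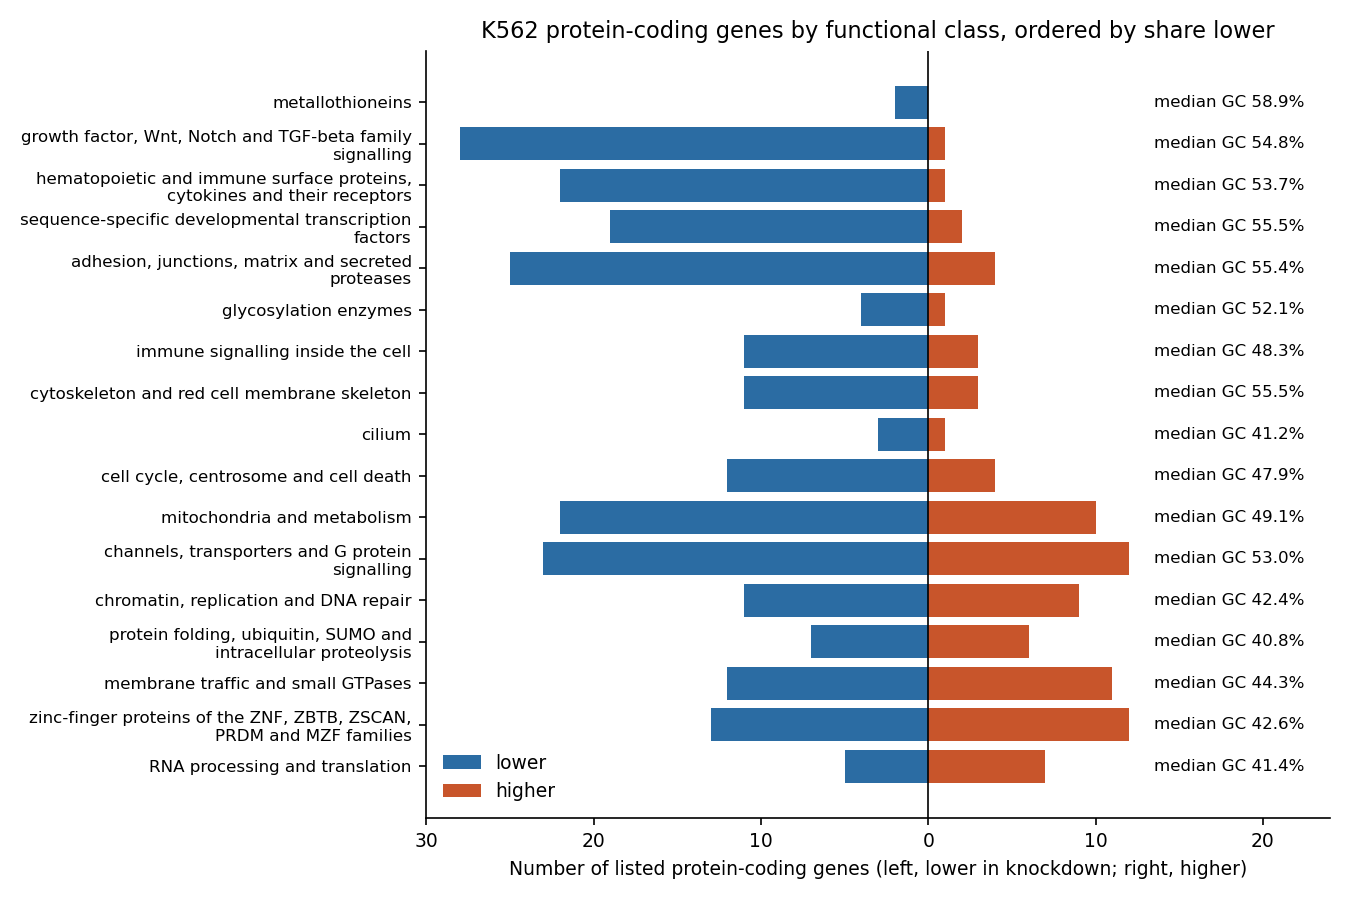
Bars show how many listed K562 protein-coding genes of each class of function were lower (left) and higher (right) in the knockdown, in order of the share lower, with the median GC content of the class beside them. Signalling and cell surface classes stand near the top with a median GC content of 53.7% to 55.5%, and RNA processing stands at the bottom with 41.4%. The order by share does not follow GC content throughout. Channels, transporters and G protein signalling have 53.01% with 65.7% lower, and the cilium class has 41.2% with 75% lower.

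In 5 classes lower and higher genes were closer in number, and their median GC content lay between 40.8% and 44.3%. Among 12 genes of RNA processing and translation 7 were higher and 5 lower, with a median GC content of 41.4%. TRMT61B, a mitochondrial tRNA methyltransferase, averaged 90.0 in the knockdown and 32.5 in the control, 2.72-fold higher. ERI1, an exonuclease of histone mRNA, averaged 56.5 against 24, and MBNL3, a muscleblind RNA-binding protein and the only listed gene of 83 splicing and RNA-binding genes, 22.5 against 10. The lower genes were ADAR, the m6A reader YTHDF3 (52.5 against 131), the cap-binding proteins EIF4E (26 against 63.5) and EIF4E3 (3.5 against 19.5), and the ribonuclease ANG (12.5 against 34).

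Zinc-finger proteins were 13 lower and 12 higher, with a median GC content of 42.6%. Below the median GC content 9 of 17 were lower, and at or above it 4 of 8, beside 87.3% of all such genes. ZBTB44 averaged 80.3 against 33.3 and was higher, as was PRDM15, at 31 against 5.5. ZNF787 averaged 67 against 136 and was lower. Membrane traffic and small GTPases were 12 lower and 11 higher, with a median GC content of 44.3%. BCAP29, a protein of the endoplasmic reticulum membrane, averaged 98.8 against 265, 2.67-fold lower. RAB38, a GTPase of pigment granules and platelet dense granules, averaged 27.8 against 10 and was higher, as was RASGRF2, an exchange factor of RAS, at 41 against 18.5.

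Chromatin, replication and repair genes were 11 lower and 9 higher, with a median GC content of 42.4%. Of the genes below the median GC content 4 of 12 were lower, and 7 of 8 at or above it. The shares over all such genes were 54.1% and 87.3%. MYSM1, a histone H2A deubiquitinase needed for blood formation in mice and humans, averaged 32 against 94.5, 2.89-fold lower. BRD7, a bromodomain protein of a SWI/SNF complex, averaged 41.2 against 86.8, and HDAC4 12.5 against 28. ERCC8, a protein of transcription-coupled repair, averaged 102 against 45.2, GEN1, a resolvase of Holliday junctions, 64.8 against 30.8, and HELLS, a chromatin remodeler of DNA methylation, 25.2 against 4.75. ERCC8 and HELLS overlap other listed genes. In protein folding, ubiquitin and proteolysis 7 genes were lower and 6 higher, with a median GC content of 40.8%. RNF5, a ubiquitin ligase of the endoplasmic reticulum, averaged 44 against 97.8, and SENP7, a SUMO protease, 34.5 against 14.5.

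Folds past 4 were found for 21 lower genes (5.12% of the protein-coding genes) and 12 higher ones (2.93%). Among genes at or above the median larger average, the largest higher fold was that of PRNP, the prion protein gene, at 34 against 3.33, 8.08-fold. KATNBL1, listed as C15ORF29, a regulator of the microtubule-severing katanin, was 3.24-fold higher at 54 against 16. AQP11, an aquaporin of intracellular membranes, was 2.79-fold higher, YAF2, a partner of Polycomb proteins, 2.65-fold and MOSPD1 2.74-fold, and SPTY2D1OS 3.02-fold. The lowest folds, besides those given above, were those of PRR36, listed as FLJ22184 (6.25 against 33), RGMA (9 against 33) and PCDHGA3 (11 against 37). Of the 93 protein-coding genes not assigned to a class, 60 were lower, or 64.5%.

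The other gene lists had few listed members. Of 79 cytokines, chemokines and receptors 5 were listed and 4 were lower, all of them named above. Of 73 genes of matrix and adhesion, MUC4 and ITGA6 were listed. Of 81 chromatin modifiers and histone variants, HDAC4 and MLL4 were listed and both were lower. POLI, a translesion polymerase, was the only listed gene of 55 DNA repair genes and was higher at 22.1 against 9.62, and SCD5 was the only one of 58 genes of cholesterol and fatty acid metabolism.

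Lists taken by symbol pattern hold pseudogenes and antisense genes as well, and not every name taken belongs to the family. The background for their counts is 61.8% lower over all listed genes and 70.7% over the protein-coding ones. Of 14 names of small GTPases and their regulators 10 were higher, and of the 11 protein-coding ones 9 were. The protein-coding exceptions PLEKHA2 (17.3 against 38.2) and RAB26 (13.9 against 33.6) were lower. Of 11 names of homeobox, SOX, FOX and other developmental factors 10 were lower, and of 12 names of mitochondrial respiration also 10, with 5 protein-coding genes among the 12. Of 11 names of phosphatases and kinases 8 were lower, and of 10 of the ubiquitin system 6. Solute carriers were 4 lower of 9, ion channels 3 of 4, ZNF names 11 of 25 and cytoskeletal names 9 of 19. Histone names were 4 lower of 5. The pattern for cancer-testis genes took only PAGE2 (26 against 11.5) and the pseudogene CTAGE3P (53 against 17), both higher. TEX19, a testis-expressed gene that it does not take, was lower (210 against 478), so nothing can be read for such genes as a group.

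Genes outside the protein-coding set were closer to an even split. Of 270 pseudogenes of any kind, 129 were lower (47.8%). Of 17 small nucleolar RNAs 16 were higher, and SNORA8, a guide of pseudouridylation, averaged 161 in the knockdown and 62 in the control. They lie in introns of other genes for the most part and are shorter than usual sequencing fragments, so their values are uncertain. Of 37 names of ribosomal proteins, nearly all pseudogenes, 27 were higher; the names include RPS6KA3, which is a kinase. RPL41, a ribosomal protein gene whose identifier was not in the reference, averaged 413.5 against 892.5 and was lower. Of 50 lincRNAs 37 were lower (74%), and of 69 antisense genes 46 (66.7%), shares near the 70.7% of protein-coding genes.

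Of the protein-coding genes, 38 were listed in both lines. They were 9.27% of the 410 in K562 and 4.23% of the 899 in HepG2, a line from a liver tumor. In both lines 10 were lower and 2, ERCC8 and NBEAL1, were higher. Another 21 were lower in K562 and higher in HepG2, and 5 were higher in K562 and lower in HepG2. These counts stand beside shares over all listed protein-coding genes of 70.7% lower in K562 and 55.5% higher in HepG2. ADAR was lower in both, with log2 folds of -1.06 in K562 and -1.82 in HepG2. CXCR4 (-1.09 and -1.08), CD83 (-1.26 and -1.79), IGFBP4 (-1.09 and -2.67) and FAM133A (-2.54 and -3.58) were lower in both as well. The log2 folds of IL8 were -2.02 in K562 and 6.35 in HepG2. Those of INHBE were -1.68 and 4.33, of STC2 -1.38 and 4.27, of NMI -1.32 and 2.21 and of PHLDA1 -1.27 and 2.19. With 1 sample per group, the difference between the lines was not tested for any gene.

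**Figure D5:**
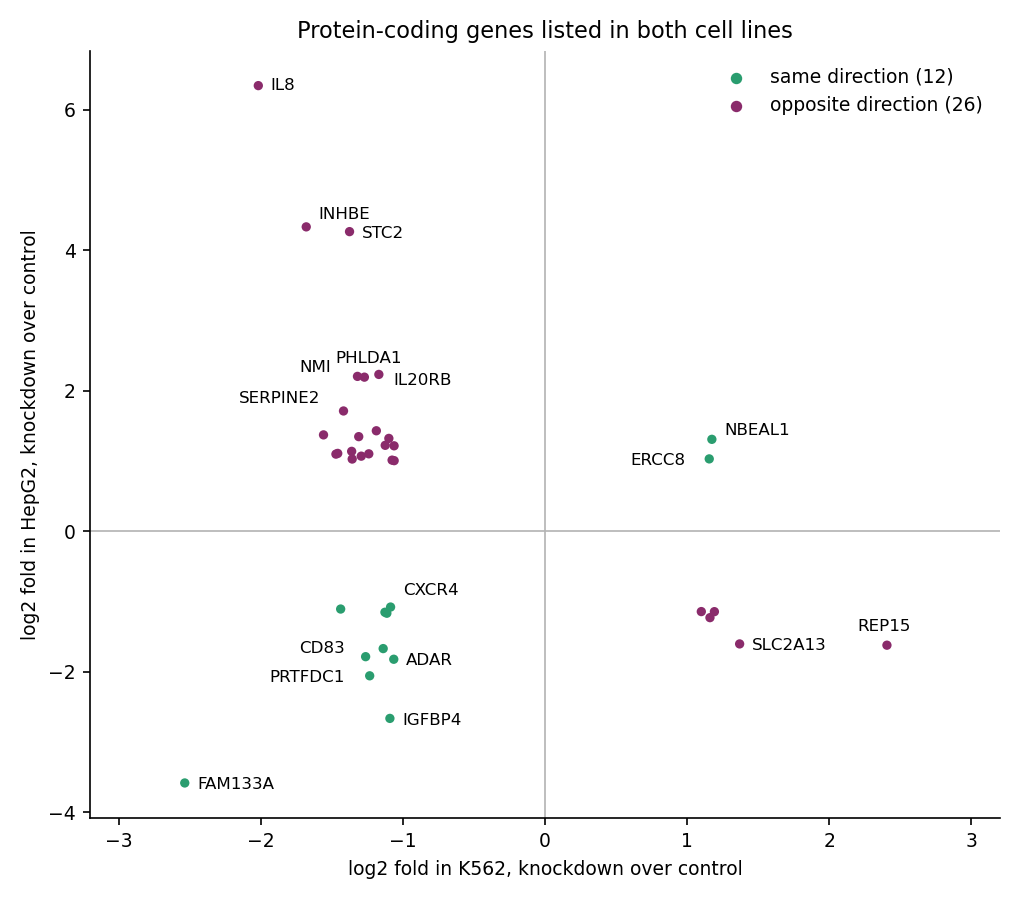
The log2 fold in K562 (horizontal axis) is plotted against that in HepG2 (vertical axis) for the 38 protein-coding genes listed in both tables. Of these, 26 lie in the quadrants of opposite direction, with IL8, INHBE and STC2 farthest out, and 12 in those of the same direction.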

How the data were processed

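RNA of K562 cells with a stable ADAR knockdown and of cells with a scrambled control was sequenced, with 1 sample in each group as labelled. The submitters' processing notes name TopHat, SAMtools and hg19 but no versions. Which tool counted reads, with which annotation, strand setting or depth scaling, is not given in the sources used here. Per the file headers, each row of the deposited table held an average for each group, treated here as a signal because its unit is not named, a log2 fold, and a signed fold, treated as a score. Adding 1 to both averages and taking the log2 of their ratio gave the deposited log2 fold to within 4.99933e-12. The library depth is unknown, so no interval was given and the precision of low averages is unknown too.

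Folds were recomputed with a pseudocount of 1. Rows with the same deposited symbol were reduced to that with the highest mean average, which left 942 genes. Types, names and overlaps of genes were taken from GENCODE release 29 by Ensembl identifier, which matched 840 of 945 identifiers; no gene coordinates are printed, since the deposited build was hg19. GC content was that of the longest protein-coding transcript and was found for all 410 protein-coding genes. Promoter windows matched fewer than 80% of the genes (310 of 410), so the check of promoter GC content is void for the whole set, and the motif shares rest on these windows too. Of the protein-coding genes, 22 overlap another listed gene and 26 have a deposited name that gives several genes.

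The members, the 37 gene lists and the rules were chosen with earlier results of these data known. The 17 classes of function were assigned by hand to 317 of the 410 protein-coding genes after the table was seen. Named genes were ADAR, the 30 protein-coding genes with the highest mean average, the 10 highest and 10 lowest log2 folds among those with a larger average no lower than the protein-coding median, every listed member of the blood and leukemia lists, and the leading members by larger average of other lists and classes; genes named besides these were chosen after their values were seen, and a few that the rule takes are left out of the text. With 1 sample per group nothing was tested. The calculations were tested on simulated data. Alternatives were other pseudocounts, thresholds, floors and scalings, genes without overlap, every gene type, every row, and, added after seeing the data, genes below and above the median GC content, names of 1 gene only and GC content averaged over transcripts. Tables were read with pandas 2.3.3 and numpy 2.4.6 under Python 3.11.15, and plots were drawn with matplotlib 3.10.9.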

Additional observations from a re-analysis of the deposited data

Results flagged for a closer look

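Protein-coding genes that went one way in K562 and the opposite way in HepG2 drew attention; with 1 sample per group, the difference between the lines was not tested for any of them. The values here are log2 folds in K562. Lower in K562 and higher in HepG2 were genes of cytokines, secreted factors, the cell surface and immune signalling: IL8 (-2.02), INHBE (-1.68), STC2 (-1.38), IL20RB (-1.17), CD70 (-1.36), NMI (-1.32), IFIT2 (-1.46), SKAP2 (-1.36), SERPINE2 (-1.42) and ITGA6 (-1.47). Of these, IL8 had the lowest K562 value. The same direction of difference was found for genes of other functions: PHLDA1 (-1.27), JDP2 (-1.19), ZNF260 (-1.56), LOC401097 (-1.06), LOC100133772 (-1.08), HIST1H2BL (-1.24), GNG4 (-1.29), JAZF1 (-1.06), COX19 (-1.13), TSPAN9 (-1.10) and JUB (-1.31). Higher in K562 and lower in HepG2 were HMGB1 (1.19), REP15 (2.41), SLC2A13 (1.37), LOC283398 (1.10) and MFAP5 (1.16). REP15, a partner of the recycling GTPase RAB15, had the highest K562 value among these.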

How the results depend on the processing

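Of 50 named genes, 24 fell under 2-fold when the knockdown averages were multiplied by 1.5, with ADAR at a log2 fold of -0.48, LDHA at -0.60 and DLK1 at -0.51, and 12 when they were divided by 1.5, with RPL37 at 0.52 and COX7B at 0.61; no sign could turn, since each gene was past 2-fold. Multiplied by 1.5, 55 protein-coding genes stayed past 2-fold and lower, a share of 31.4% with a median log2 fold of 1.68. Divided by 1.5, 22 stayed higher, 92.9% were lower and the median was -1.77. Genes under 2-fold are not listed, so multiplying could only remove lower genes and dividing only higher ones. The direction of these shifts was therefore fixed in advance. The scaling itself, and how the balance over all genes depends on it, cannot be checked. Stricter settings kept fewer genes and so gave smaller counts. At 3-fold 51 were lower and 20 higher (median -1.74), and at 4-fold 21 and 12 (63.6% lower, median -2.03). With a pseudocount of 5, 193 were lower and 72 higher (median -1.09); with 0.1 the median was -1.18. With the larger average at or above the median, 141 were lower and 53 higher, and at or above 100, 45 and 11 (80.4% lower, median -1.09). Over every gene type 582 were lower and 360 higher (61.8%, median -1.09). Below the median GC content 111 were lower (54.1%, median -1.03), and at or above it 179 were lower and 26 higher (87.3%, median -1.22). With the larger average at or above 100, the medians of zinc-finger ZNF names (-1.01, 1 gene), small GTPases (-1.08, 1 gene) and cytoskeleton names (-1.16, 3 genes) changed sign; few genes were left. No paired analysis was possible because each group had 1 sample, and for the same reason none could be left out.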

Other observations

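On chromosome 11, listed genes from H19 to CDKN1C, with 1 Mb on either side, were mostly lower; this region was chosen after the values were seen. Of 6 listed genes 5 were lower: H19, ASCL2, C11ORF21 (5 in the knockdown and 19 in the control), CDKN1C and SLC22A18, an imprinted transporter gene (6 against 15). The antisense gene AC131971.1 was higher, at 25.5 against 5.5. With the background of 61.8% lower over all listed genes, nothing particular to the region can be read from this.

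Of the table's identifiers, 105 were not in the reference, and 17 of these rows had a symbol. Besides RPL41, they included LHX1, a homeobox gene (26.8 against 81), MLL4, a histone methyltransferase gene (34.9 against 74.2), and HIST1H4C, a histone gene with close copies (25 against 9).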
